A study of Mus musculus with 30 samples.

Results

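The genes described here are 8 transcription factors of lateral plate and cardiac mesoderm, followed from embryonic stem cells (ESC) to blood progenitors. They were picked by name from a list of 9, and were Hand1, Hand2, Gata4, Gata6, Tbx20, Nkx2-5, Isl1 and Foxf1 among the 14685 genes of the table; the ninth, Gata5, was not analysed here. RNA was sequenced from 5 populations of the mouse ESC line E14. ESC were differentiated as embryoid bodies, from which Flk1+ mesoderm was purified on magnetic columns, and Flk1+ cells were then placed in blast culture. At day 2 of that culture, 3 populations were sorted, namely the first hemogenic endothelium HE1 (KIT+ CD41- Tie2+), the later HE2 (KIT+ CD41+ Tie2+) and progenitors (KIT+ CD41+ Tie2-). Each population came in 3 genotypes: WT E14 cells, cells in which both copies of Sp1 lack the DNA-binding domain (labelled Sp1_deltaDBD, here Sp1ΔDBD/ΔDBD), and Sp3 knockout cells (labelled Sp3KO, here Sp3-/-). With 2 replicates of each group there were 30 samples. No agent set the genotypes apart, all 3 share the E14 background, and each mutant genotype is represented by an ESC line. The labels say that libraries were made in duplicate, and the study's methods call the duplicates biological, so p-values measure the spread between such pairs.

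Lateral plate mesoderm is the sheet of mesoderm from which the heart, the body wall mesenchyme and also blood and vessel cells arise. HAND, GATA, T-box, NKX2 and LIM-homeodomain factors act there in a shared regulatory network of the early heart, whereas FOXF1 marks its splanchnic layer. Flk1 (the product of Kdr) is a VEGF receptor found on mesoderm that can still give rise to endothelial, blood, smooth muscle and cardiac cells. SP1 and SP3 are zinc finger proteins that bind the same GC-rich elements in many promoters.

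The promoters of 4 of the 8 members are shown, because GC-rich elements are what SP1 and SP3 bind; those of Hand1, Gata4, Gata6 and Foxf1 were not searched here. They are RefSeq sequences of the GRCm38.p6 build, from 250 bases before to 50 bases after the start of the gene, read 5′ to 3′ on the gene's own strand. Capitals mark the GC box GGGCGG and the GT box GGGTGG, searched on both strands, so that they can also appear as CCGCCC and CCACCC. The motifs differ at a single base, so no stretch matches both.
Tbx20 (chr9:24774254-24774553, minus strand): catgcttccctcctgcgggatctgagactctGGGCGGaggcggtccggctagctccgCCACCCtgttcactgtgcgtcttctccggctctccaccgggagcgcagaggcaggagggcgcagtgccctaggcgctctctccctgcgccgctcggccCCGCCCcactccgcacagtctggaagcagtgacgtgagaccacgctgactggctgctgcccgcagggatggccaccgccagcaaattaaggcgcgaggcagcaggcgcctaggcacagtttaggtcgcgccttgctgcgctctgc
Hand2 (chr8:57320733-57321032, plus strand): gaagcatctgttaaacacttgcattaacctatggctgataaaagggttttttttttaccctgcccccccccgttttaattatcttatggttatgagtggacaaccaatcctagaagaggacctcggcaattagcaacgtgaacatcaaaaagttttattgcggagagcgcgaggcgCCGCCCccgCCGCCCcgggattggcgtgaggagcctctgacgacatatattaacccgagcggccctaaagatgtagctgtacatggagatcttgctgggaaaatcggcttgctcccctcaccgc
Isl1 (chr13:116309639-116309938, minus strand): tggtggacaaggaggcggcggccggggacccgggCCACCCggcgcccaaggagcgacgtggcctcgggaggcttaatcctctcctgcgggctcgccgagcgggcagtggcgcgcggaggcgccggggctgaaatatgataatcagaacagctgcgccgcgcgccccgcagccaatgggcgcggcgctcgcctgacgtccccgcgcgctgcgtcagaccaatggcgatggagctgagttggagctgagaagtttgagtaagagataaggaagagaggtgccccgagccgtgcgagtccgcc
Nkx2-5 (chr17:26841516-26841815, minus strand): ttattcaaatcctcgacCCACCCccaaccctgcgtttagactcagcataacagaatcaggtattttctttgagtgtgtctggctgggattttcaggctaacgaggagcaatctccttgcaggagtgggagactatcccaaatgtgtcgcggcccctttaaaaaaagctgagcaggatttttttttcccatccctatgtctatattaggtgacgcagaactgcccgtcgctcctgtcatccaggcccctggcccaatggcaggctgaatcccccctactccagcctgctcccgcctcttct
The Tbx20 promoter held 2 GC boxes, starting 219 and 95 bases before the start site, and 1 GT box at 193 bases. The Hand2 promoter held 2 GC boxes, at 74 and 65 bases. Isl1 and Nkx2-5 had 0 GC boxes and 1 GT box each, at 216 and 233 bases. For Nkx2-5 the RefSeq start used lies inside the GENCODE gene, which spans 26838664 to 26845009 on the minus strand and so begins further upstream. Among the 32851 RefSeq mouse promoters of the same length, 35.7% held a GC box and 31.5% a GT box, and among the 14096 of them whose gene was in the table the shares were 60.6% and 37.5%. A match is a string of letters and was not tested as a binding site.

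The values are FPKM (fragments scaled to transcript length and to the number of mapped fragments), quantile normalised by the authors, with a median of 7.19 in the table. The read depth behind a value is unknown. Changes are differences of mean log2(FPKM + 0.1), which understate the change of genes with low values, with standard errors (SE) from limma over all 30 samples. The adjusted p is Benjamini-Hochberg corrected over the 14525 genes tested in each comparison, is two-sided, and is called significant under 0.05. For 2 samples a group, the smallest p an exact permutation test allows is 0.333. In bulk RNA, fewer cells of a type and less RNA per cell cannot be told apart. The labels were checked against the targeted genes and markers of the gates. Sp3 was called lower in each of the 5 Sp3-/- populations, at 3.38 to 7.79 FPKM, against 25.9 to 58.1 in WT. Sp1 transcripts, which a deletion of the DNA-binding domain need not remove, were at 14.8 to 40.5 FPKM in Sp1ΔDBD/ΔDBD cells, against 24.9 to 52.4 in WT. They were called lower there in Flk1+ cells (-0.63, limma adjusted p = 0.0311), HE2 (-0.56, 0.0404) and progenitors (-0.76, 0.00788), but not in ESC (0.217) or HE1 (0.801). In Sp1ΔDBD/ΔDBD HE1 Sp3 was called higher (0.71, 0.0210). The WT populations had Kdr at 192 to 209 FPKM in Flk1+ cells, Cdh5 at 402 to 501 FPKM in HE1, Itga2b (CD41) at 84.6 to 147 FPKM in HE2, and Tek (Tie2) at 5.95 to 8.67 FPKM in progenitors, against 85.1 to 90.2 in HE2. Itga2b was also at 34.8 to 49.2 FPKM in WT HE1, a gate that takes CD41-negative cells.

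In WT cells all 8 members were higher in Flk1+ cells than in ESC, where 27.4% of all genes tested were called higher. In HE1 they parted, with Hand2 and Nkx2-5 rising, Isl1 and Foxf1 falling and the others not past the threshold. All 8 were lower in HE2 than in HE1, where 10.2% of all genes were called lower. HE1, HE2 and progenitors were sorted on the same day of culture, so steps between them join sorted populations, not time points. Over the 4 steps, 23 of 32 tests passed the threshold, 10 upwards and 13 downwards. The panels of levels by sample show this rise and fall for each gene.

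**Figure D1:**
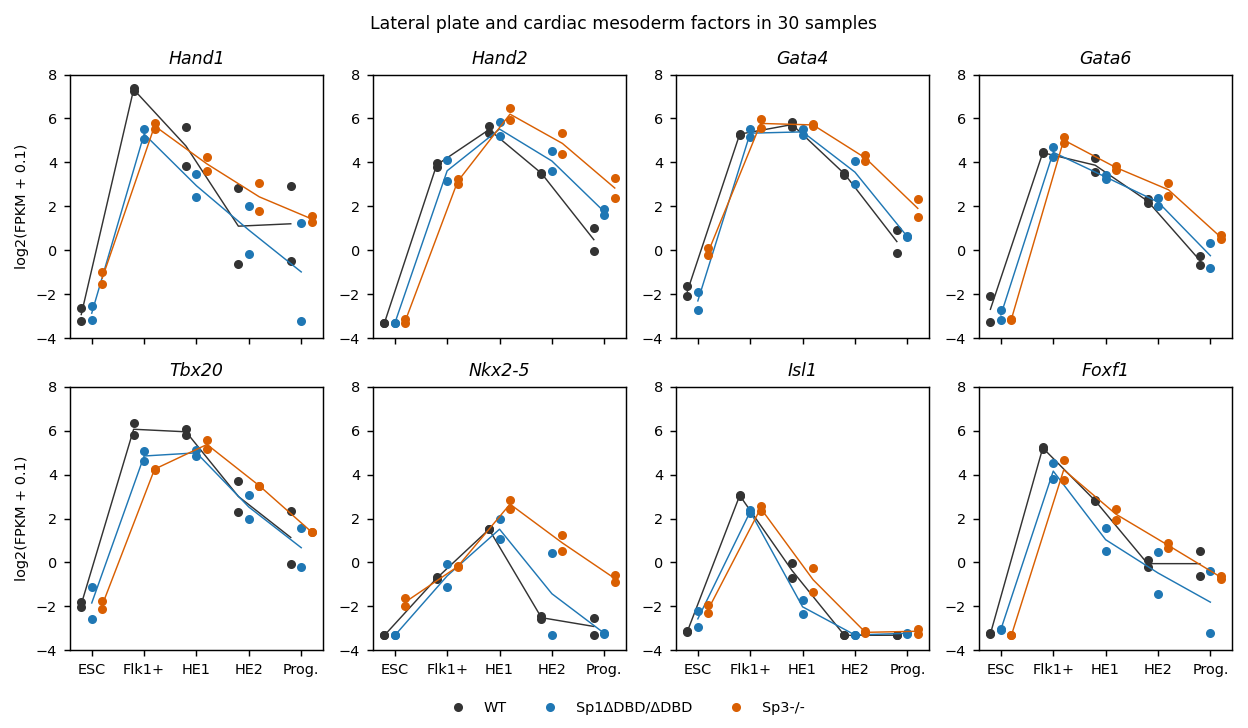
Level of each of the 8 factors as log2(FPKM + 0.1) (y axis) in ESC, Flk1+, HE1, HE2 and progenitor cells (x axis); each point is 1 sample, coloured by genotype, and lines join the means of 2 replicates. All 8 were near the bottom of the scale in ESC and higher in Flk1+ cells; Isl1 was at the lowest value of its sample in HE2 and progenitors, and the 2 replicates of Hand1 lay far apart in WT HE2 and progenitors.

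Hand1 encodes a basic helix-loop-helix factor of lateral and extraembryonic mesoderm and of the left ventricle, and lies on chromosome 11 (57828705 to 57832818, GRCm38, minus strand). It was the most abundant member in WT Flk1+ cells, at 153 and 168 FPKM, after 0.0628 and 0.00664 in ESC. In WT HE1 it was at 49.5 and 14.4 FPKM, in HE2 at 7.03 and 0.543, and in progenitors at 7.43 and 0.608. Its 2 replicates lay far apart from HE1 onwards, and replicate 1 was the higher in 8 of the 9 groups from the blast culture. The HE1 level was not called below that of Flk1+ cells (-2.58, SE 1.22, limma adjusted p = 0.0845). It was with the shared blast culture in the model (0.0465), a pseudocount of 1 (0.00898) or both populations fitted alone (0.00304). In 6 of 9 such settings it was not called (up to 0.101), and leaving out single samples gave a change of -3.47 to -1.69. By contrast the HE2 level was called below that of HE1 (-3.65, limma adjusted p = 0.0387), a call lost without WT HE1 replicate 1 (0.260) or WT HE2 replicate 2 (0.384), with the populations compared fitted alone (0.0698) and with no intensity trend (0.0518).

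Smooth muscle markers showed the same split between replicates. The summed level of Acta2, Tagln, Cnn1, Myh11 and Des was 1675 FPKM in replicate 1 and 344 in replicate 2 of WT HE1, 432 and 67.6 in WT HE2, and 263 and 78.2 in WT progenitors. Replicate 1 was higher in 8 of the 9 blast culture groups, the exception being the Sp3-/- progenitors, as for Hand1. The 5 fibroblast markers in the table of 7 also summed higher in replicate 1 in 8 of 9 groups, at 282 and 35.7 FPKM in WT HE1. The part of such cells in the Hand1 level was not tested.

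Foxf1, a forkhead factor of splanchnic mesoderm, followed a course near that of Hand1. It stood at 37.9 and 36.2 FPKM in WT Flk1+ cells and at 7.02 and 6.84 in HE1. In HE2 it was at 0.977 and 0.763 FPKM and in progenitors at 1.33 and 0.549. The fall from Flk1+ to HE1 was called (-2.40, SE 0.667, limma adjusted p = 0.00513), as was that from HE1 to HE2 (-2.87, 0.00475). HE2 and progenitor levels overlapped. Foxf1 (chromosome 8, 121084386 to 121088144, plus strand) overlaps a gene on the other strand, Gm27530, and the study ran the aligner and StringTie with default parameters and names no strand setting. The neighbouring long noncoding RNA Fendrr was at 4.97 to 6.39 FPKM in WT Flk1+ cells and at most at 0.146 FPKM in WT HE1.

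Isl1, the LIM-homeodomain factor of second heart field progenitors, had the narrowest window. It was at 8.33 and 8.04 FPKM in WT Flk1+ cells and at 0.870 and 0.517 in HE1. In HE2 and progenitors of each genotype it stood at the lowest value listed for that sample, which is 0 or, after quantile normalisation, a value of at most 0.0234 FPKM. The fall from Flk1+ cells to HE1 was called, and 29.5% of all genes fell in that step (-3.42, SE 0.345, limma adjusted p = 1.43e-07). Isl1 lies on chromosome 13 (116298281 to 116309689, minus strand).

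Hand2, the partner basic helix-loop-helix factor that acts in the right ventricle and limb, was highest in HE1. It was listed at 0 in both WT ESC samples, so no fold is given for its appearance in Flk1+ cells at 13.9 and 15.5 FPKM. In HE1 it reached 40.2 and 50.2 FPKM, above both Flk1+ samples, and 23.5% of all genes rose in that step (1.60, SE 0.397, limma adjusted p = 0.00219). It was at 11.5 and 11 FPKM in HE2 and at 1.89 and 0.883 in progenitors, a further fall that was called (-3.02, limma adjusted p = 3.18e-05) where 7.78% of all genes fell. Hand2 (chromosome 8, 57320983 to 57324633, plus strand) overlaps the antisense gene Hand2os1, whose reads may not have been told apart from its own.

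Nkx2-5, the homeodomain factor that marks committed cardiac progenitors, was low throughout. It was listed at 0 in both WT ESC samples and stood at 0.533 and 0.485 FPKM in Flk1+ cells. It reached 2.75 FPKM in each WT HE1 sample, and fell to 0.0665 and 0.0847 in HE2. The rise into HE1 was called (2.23, SE 0.709, limma adjusted p = 0.0126), but not without WT Flk1+ replicate 2 (0.0584), WT HE1 replicate 1 (0.0503) or WT HE1 replicate 2 (0.0506). With a pseudocount of 1 its rise into Flk1+ cells was not called (0.0723).

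Gata4 and Gata6, zinc finger factors of cardiac mesoderm and endoderm, were abundant in both Flk1+ cells and HE1. Gata4 was at 38.5 and 39.5 FPKM in WT Flk1+ cells and at 48.1 and 57.7 in HE1. Gata6 was at 21.1 and 22.2 FPKM and then at 11.8 and 18. The HE1 samples of Gata4 lay above and those of Gata6 below the Flk1+ samples, and neither step was called (limma adjusted p = 0.333 and 0.201), although that of Gata6 was with a pseudocount of 1 (0.0381) and with both populations fitted alone (0.0487). From HE2 to progenitors Gata4 fell from 11.4 and 10.7 to 1.82 and 0.806 FPKM (-3.08, limma adjusted p = 9.57e-06). Gata6 fell in the same step from 4.40 and 4.88 to 0.537 and 0.728 FPKM (-2.71, limma adjusted p = 3.91e-05). Gata4 lies on chromosome 14 (63198922 to 63271692) and Gata6 on chromosome 18 (11052064 to 11085635), where it overlaps 1010001N08Rik on the other strand.

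Tbx20, a T-box factor of the cardiac chambers, was at 54.9 and 81.3 FPKM in WT Flk1+ cells and at 55.7 and 68.1 in HE1. These samples overlapped. It then fell to 13 and 4.82 FPKM in HE2 (-2.94, SE 0.642, limma adjusted p = 0.00296), which was not called without WT HE2 replicate 2 (0.0524). In progenitors it stood at 4.93 and 0.863 FPKM, not called below HE2 (limma adjusted p = 0.0622). It was called with the shared blast culture in the model (0.0139) or a pseudocount of 1 (0.0378), but not in 7 of 9 such settings (limma adjusted p up to 0.256). Leaving out single samples gave a change of -3.06 to -0.673. Tbx20 lies on chromosome 9 (24718138 to 24774303, minus strand).

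By level, the order of the WT means in Flk1+ cells was Hand1, Tbx20, Gata4, Foxf1, Gata6, Hand2, Isl1 and Nkx2-5, and none of these neighbours overlapped between their samples. In HE1 it was Tbx20, Gata4, Hand2, Hand1, Gata6, Foxf1, Nkx2-5 and Isl1. There Tbx20 and Gata4 overlapped, as did Gata4 and Hand2, Hand2 and Hand1, and Hand1 and Gata6. These orders compare FPKM, a value per length.

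Hematopoietic GATA factors were followed in the same samples. Gata2, a factor of blood stem cells and endothelium, was at 12.6 to 14 FPKM in WT Flk1+ cells and at 7.35 to 7.65 in progenitors. Gata1, the factor of red cells and megakaryocytes, was at 0 to 0.187 FPKM in WT HE1, at 2.01 to 6.30 in HE2 and at 45.9 to 69.9 in progenitors, where Gata4 was at most at 1.82 FPKM. Gata3 had a course like that of Gata6 at a lower level, at 3.4 to 4.15 FPKM in WT Flk1+ cells. Across the 15 group means the correlation of Gata3 with Gata6 was 0.990, the highest of any gene with Gata6.

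**Figure D2:**
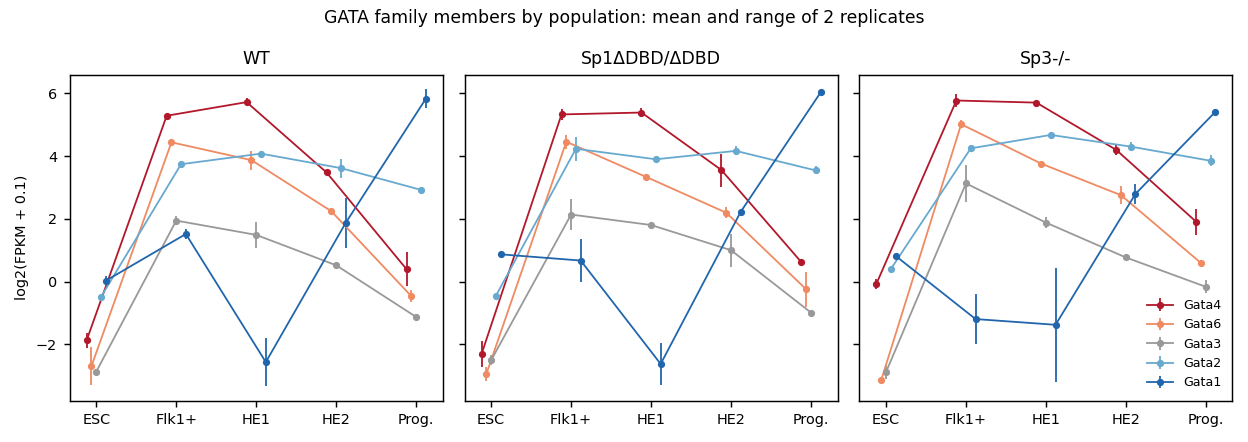
Levels of 5 GATA family genes as log2(FPKM + 0.1) (y axis) by population (x axis) in WT, Sp1ΔDBD/ΔDBD and Sp3-/- cells; points are the mean of the log2 values and bars the range of 2 replicates. In the 3 genotypes Gata4 and Gata6 were lower in progenitors than in HE1, whereas Gata1 was higher in progenitors than in HE1 and stood above Gata4 there.

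Other genes were ranked by how closely their 15 group means of log2(FPKM + 0.1) followed each member, among 12016 genes with a group mean above 3 FPKM. These are descriptions over 15 groups that share libraries and genotypes. Hand1 and Foxf1 were each other's nearest gene (r = 0.985), followed by Tmem185a (0.965) and Foxk1 (0.964) for Hand1 and Crb2 (0.981) and Pwwp2b (0.971) for Foxf1. Hand2 lay nearest to Uph (0.986), Hdac7 (0.983) and C430049B03Rik (0.982). Gata4 lay nearest to Arhgef17 (0.982), Snx33 (0.975) and Gata6 (0.973), and Gata6 to Gata3, Rftn1 (0.978) and Chst2 (0.976). Tbx20 had Dok4 (0.979), Nrp1 (0.979) and Stk39 (0.977), and Isl1 had Evx1 (0.984), Pknox2 (0.969) and Evx1os (0.968). The values for Nkx2-5 were lower, with Zdhhc8 (0.947), B4gat1 (0.920) and Tmem181a (0.914). Between members the lowest correlation was that of Isl1 with Hand2 (0.307).

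The mutants were each compared with WT, using the same WT samples. In Flk1+ mesoderm, 4 members had lower values in each sample of both mutants than in either WT sample, namely Hand1, Tbx20, Foxf1 and Isl1, a pattern that 16.7% of all genes tested shared. In the fit over all 30 samples 0 of the 8 members passed the threshold there in either mutant, against 5.54% of all genes in Sp1ΔDBD/ΔDBD and 12.6% in Sp3-/- cells. When blocked by replicate number 1 passed, Tbx20 in Sp3-/- cells, where the block called 2130 of 14525 genes. With the 6 Flk1+ samples fitted alone, Hand1 was called lower in both mutants and Tbx20 in Sp3-/- cells, where this fit called 4.16% and 14.4% of all genes. The median change of the 8 members was -0.50 in Sp1ΔDBD/ΔDBD and -0.67 in Sp3-/- Flk1+ cells, beside 0.02 and 0 over all genes.

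Hand1 was at 33.9 and 45.1 FPKM in Sp1ΔDBD/ΔDBD and at 45.3 and 56.3 in Sp3-/- Flk1+ cells, against 153 and 168 in WT. The groups did not overlap WT, and the WT mean was 4.06 and 3.15 times those of the mutants. The log2 change was -2.03 and -1.66 (SE 1.22 in both, limma adjusted p = 0.414 and 0.423 over all samples, 0.0324 and 0.0258 in Flk1+ samples alone). The all-sample fit takes its spread from each of the groups. Among them are the WT HE2 and progenitor pairs of Hand1 described above, 3.47 and 3.41 apart on the log2 scale. The Sp1ΔDBD/ΔDBD progenitor pair, at 2.26 and 0.00816 FPKM, was 4.45 apart. Chromosome 11, where Hand1 lies, had a median change of -0.12 in Flk1+ cells of either mutant over 1205 genes, and with each chromosome centred on its own median the Hand1 changes were -1.85 and -1.52 (limma adjusted p = 0.486 and 0.474).

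Tbx20 was at 24.2 and 33.9 FPKM in Sp1ΔDBD/ΔDBD and at 18.5 and 19.3 in Sp3-/- Flk1+ cells, against 54.9 and 81.3 in WT. Neither mutant overlapped WT. The log2 change was -1.22 (SE 0.642, limma adjusted p = 0.328) in Sp1ΔDBD/ΔDBD and -1.82 (limma adjusted p = 0.0701) in Sp3-/- cells. With Flk1+ samples alone the adjusted p was 0.0771 and 0.0314, and that of Sp3-/- cells was 0.0125 with a pseudocount of 1 and 0.0220 when blocked by replicate number. In 6 of 9 such settings the Sp3-/- fall was not called (limma adjusted p up to 0.111), and leaving out single samples gave a change of -2.10 to -1.53.

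Foxf1 was at 13.9 and 22.7 FPKM in Sp1ΔDBD/ΔDBD and at 13.6 and 25.2 in Sp3-/- Flk1+ cells, against 37.9 and 36.2 in WT. The log2 changes of -1.05 and -1.0 were not called (limma adjusted p = 0.442 and 0.369). Isl1 was at 5.11 and 4.63 FPKM and at 5.89 and 5.0, against 8.33 and 8.04 in WT (log2 change -0.74 and -0.58, limma adjusted p = 0.255 and 0.299). Both were separate from WT in the 4 mutant samples. With a pseudocount of 1, Isl1 was called in both mutants (0.00350 and 0.0113) and Foxf1 in Sp3-/- cells (0.0488).

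The other 4 members gave no such picture in Flk1+ cells. Hand2 was at 8.68 and 17.1 FPKM in Sp1ΔDBD/ΔDBD, on either side of WT, and at 7.96 and 9.43 in Sp3-/- cells (log2 change -0.76, limma adjusted p = 0.233). Gata4 stood at 47.5 and 62.8 FPKM and Gata6 at 35.4 and 29.5 in Sp3-/- cells, above both WT samples of each (log2 change 0.49 and 0.58, limma adjusted p = 0.428 and 0.335). Nkx2-5 was at 0.781 and 0.775 FPKM in Sp3-/- cells, above both WT samples by less than the error of the fit (0.53, SE 0.709, limma adjusted p = 0.704). In Sp1ΔDBD/ΔDBD cells the samples of Gata4, Gata6 and Nkx2-5 lay on either side of those of WT.

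Markers of other cell types moved in the same Flk1+ samples. Of 6 endothelial markers, 5 rose in Sp1ΔDBD/ΔDBD (Cdh5, Pecam1, Tek, Esam and Emcn) and 3 in Sp3-/- cells (Cdh5, Tek and Esam). Their sum was 21.6 to 45.4 and 19.7 to 21.3 FPKM, against 11.6 to 12.8 in WT, where Emcn was at 0. With Flk1+ samples fitted alone, 0 of these calls passed, with an adjusted p of 0.0619 to 0.173 in Sp1ΔDBD/ΔDBD and of 0.0896 to 0.115 in Sp3-/- cells. Of 5 smooth muscle markers 1, Des, fell in Sp1ΔDBD/ΔDBD cells and 0 were called in Sp3-/- cells, and the sum was 6.92 to 8.94 and 11 to 12.5 FPKM, against 16.1 to 19.1 in WT. The 5 fibroblast markers, of which 0 were called, summed to 3.18 to 3.4 and 2.73 to 3.57 FPKM, against 11.2 to 16.2 in WT, with Col3a1 at 0 in both WT samples.

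Some markers of early mesoderm, of pluripotent cells and of blood also moved in Flk1+ cells. Of 6 mesoderm markers 3 rose in Sp3-/- (Mesp1, Etv2 and Lmo2) and 1 in Sp1ΔDBD/ΔDBD cells (Lmo2), with sums of 497 to 554 and 373 to 436 FPKM, against 342 to 363 in WT. Of 6 pluripotency markers 2 (Sox2 and Tdgf1) rose in Sp3-/- and 0 in Sp1ΔDBD/ΔDBD cells, with sums of 353 to 380 and 83.6 to 235 FPKM, against 115 to 152 in WT. With Flk1+ samples fitted alone Etv2 was still called (0.0475), but Mesp1 (0.0723), Lmo2 (0.0707 in Sp3-/- and 0.0845 in Sp1ΔDBD/ΔDBD), Sox2 (0.135) and Tdgf1 (0.136) were not, and Des was (0.0235). Of 7 blood markers Gata1 (-2.71, limma adjusted p = 0.0381) and Hbb-bh1 (-2.08, 0.0386) fell in Sp3-/- cells, but not with Flk1+ samples fitted alone (0.0777 and 0.143). The blood sum was 7.47 to 10.3 FPKM in Sp3-/- and 12.7 to 25.9 in Sp1ΔDBD/ΔDBD cells, against 13.6 to 16.7 in WT. The 2 endoderm markers in the table, Rbp4 and Cubn of 11 listed, were not called, and summed to at most 2.80 FPKM in any Flk1+ sample. The part of these cell types in the lower Hand1, Tbx20, Foxf1 and Isl1 values was not tested.

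**Figure D3:**
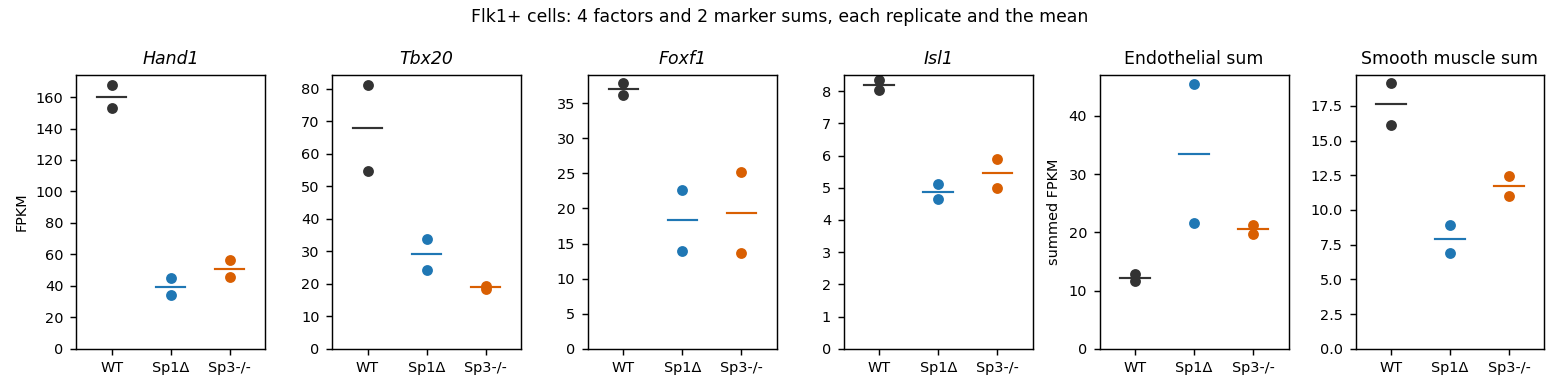
FPKM of 4 factors and summed FPKM of endothelial and smooth muscle markers (y axes from 0) in Flk1+ cells of WT, Sp1ΔDBD/ΔDBD (Sp1Δ) and Sp3-/- genotype; points are replicates and horizontal lines their mean. The 4 mutant samples lay below both WT samples for Hand1, Tbx20, Foxf1, Isl1 and the smooth muscle sum, and above them for the endothelial sum.

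In Sp1ΔDBD/ΔDBD cells 1 of the 40 tests against WT passed the threshold, the fall of Isl1 in HE1. By limma 5 had an unadjusted p under 0.05, as had 2721 to 3524 of 14525 genes per population. The called share of all genes was 6.06% in ESC, 10.0% in HE1, 9.67% in HE2 and 8.78% in progenitors. With HE1 samples fitted alone, 220 of 14525 genes were called there. Isl1 was at 0.0992 and 0.206 FPKM in Sp1ΔDBD/ΔDBD HE1, below the 0.870 and 0.517 of WT (-1.65, SE 0.345, limma adjusted p = 0.00470). The call was lost without WT HE1 replicate 1 (0.0817) and with HE1 samples fitted alone (0.157), and the values lie under 1 FPKM. In the same samples Des (-2.88, 0.000389) and Hba-x (-2.36, 0.0328) fell, and Emcn (1.68, 0.0330) and Lmo2 (0.94, 0.00837) rose by limma adjusted p, 1 each of 5 smooth muscle, 7 blood, 6 endothelial and 6 mesoderm markers. The sums in Sp1ΔDBD/ΔDBD and WT HE1 were 244 to 977 and 344 to 1675 FPKM for smooth muscle, 66.3 to 69.7 and 84.3 to 133 for blood, 892 to 1157 and 843 to 1201 for endothelium, and 282 to 430 and 260 to 367 for mesoderm. The part of these markers in the Isl1 value was not tested.

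Foxf1 and Hand2 came next. Foxf1 was at 2.83 and 1.34 FPKM in Sp1ΔDBD/ΔDBD HE1, against 7.02 and 6.84 in WT, without overlap (-1.78, SE 0.667, limma adjusted p = 0.0984, and 0.00682 with a pseudocount of 1). In 8 of 9 other settings this fall was not called (limma adjusted p up to 0.130), and leaving out single samples gave a change of -2.29 to -1.26. In Sp1ΔDBD/ΔDBD progenitors Hand2 was at 3.62 and 2.96 FPKM, above the 1.89 and 0.883 of WT (1.27, SE 0.397, limma adjusted p = 0.0526). This rise was called in the fit of genes with a group mean above 3 FPKM. It was also called after correcting for GC and gene length (0.0218) and with the shared blast culture in the model (0.0391). In 6 of 9 such settings it was not called (limma adjusted p up to 0.272), with a change of 0.874 to 1.48 over the 9. Leaving out single samples gave a change of 0.761 to 1.78.

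Tbx20 was also lower than WT in HE1 of both mutants, without overlap and without a call. It was at 29.0 and 34.6 FPKM in Sp1ΔDBD/ΔDBD and at 36.3 and 47.0 in Sp3-/- HE1, against 55.7 and 68.1 in WT (log2 change -0.96 and -0.58, limma adjusted p = 0.400 and 0.631). Hand1 was at 10.9 and 5.23 FPKM in Sp1ΔDBD/ΔDBD and at 18.7 and 12.3 in Sp3-/- HE1, the latter overlapping the 49.5 and 14.4 of WT (log2 change -1.81 and -0.81, limma adjusted p = 0.405 and 0.745).

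Values of Sp1ΔDBD/ΔDBD progenitors and HE2 also rested on single samples. Replicate 2 of the progenitors had Hand1 and Foxf1 at the lowest value of the sample, 0.00816 FPKM, whereas replicate 1 had 2.26 and 0.657. The log2 change was -2.19 for Hand1 (limma adjusted p = 0.309) and -1.75 for Foxf1 (0.115). Leaving out single samples moved that of Hand1 from -4.42 (0.0477), without replicate 1, to 0.032 (0.989), and that of Foxf1 from -3.15 (0.00530), without replicate 1, to -0.35 (0.796). Nkx2-5 was at 1.26 and 0.00217 FPKM in Sp1ΔDBD/ΔDBD HE2, with a log2 change of 1.09 (limma adjusted p = 0.386) that ranged from -0.78 without replicate 1 to 2.96 without replicate 2 (0.000904).

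By limma 10 of the 40 tests of Sp3-/- cells against WT had an unadjusted p under 0.05, as had 3396 to 4210 of 14525 genes per population. In these cells 5 of the 40 tests passed the threshold. The 5 were rises, of Gata4 in ESC and progenitors, Hand2 in HE2 and progenitors, and Nkx2-5 in HE2. That is 1 of 8 members in ESC, 0 in HE1, 2 in HE2 and 2 in progenitors, where 11.3%, 10.9%, 13.8% and 8.65% of all genes were called. The median change of the members was 0.77 in HE2 and 0.65 in progenitors, beside 0.03 and 0.04 over all genes. With each population fitted alone, 0 of these 5 were called, so they rest on the spread shared between populations. Few genes of any kind passed in those fits, 611 of 14525 in ESC, 13 in HE2 and 15 in progenitors.

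Hand2 was at 21.0 and 40.1 FPKM in Sp3-/- HE2, above the 11.5 and 11 of WT (1.36, SE 0.397, limma adjusted p = 0.0287). In Sp3-/- progenitors it was at 5.14 and 9.61 FPKM, 5.32 times the WT mean of samples at 1.89 and 0.883 (2.35, limma adjusted p = 0.00161). In HE1 it was at 60.8 and 88.2 FPKM, also above both WT samples, with a log2 change of 0.71 that was not called (limma adjusted p = 0.275). With the populations fitted alone the adjusted p was 0.155 in HE2 and 0.114 in progenitors. The HE2 call was also lost without Sp3-/- HE2 replicate 2 (0.284), WT HE2 replicate 1 (0.127) or replicate 2 (0.0861), and with the GC and length correction (0.0841).

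Gata4 was at 2.72 and 4.90 FPKM in Sp3-/- progenitors, above the 1.82 and 0.806 of WT (1.51, SE 0.361, limma adjusted p = 0.0137). This was not called without Sp3-/- progenitor replicate 2 (0.162) or WT progenitor replicate 2 (0.173), nor with progenitors fitted alone (0.221). In HE2 it was at 16.5 and 20.3 FPKM, above the 11.4 and 10.7 of WT (0.72, limma adjusted p = 0.196). In Sp3-/- ESC it was at 0.970 and 0.752 FPKM, against 0.133 and 0.224 in WT (1.80, limma adjusted p = 0.00354). There the adjusted p was 0.0537 without Sp3-/- ESC replicate 1, 0.0684 with ESC fitted alone and 0.113 with a pseudocount of 1. Gata6 stood at 1.32 and 1.51 FPKM in Sp3-/- progenitors, against 0.537 and 0.728 in WT (1.06, limma adjusted p = 0.0795). None of 9 other settings called it (0.0641 to 0.325), and leaving out single samples gave a change of 0.866 to 1.24.

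Nkx2-5 was at 2.27 and 1.35 FPKM in Sp3-/- HE2, where WT had 0.0665 and 0.0847 (3.4, SE 0.709, limma adjusted p = 0.00438, and 0.189 with HE2 fitted alone). In Sp3-/- HE1 it was at 7.18 and 5.35 FPKM, above the 2.75 of both WT samples (1.14, limma adjusted p = 0.330, and 0.0263 with a pseudocount of 1). In Sp3-/- progenitors it was at 0.566 and 0.448 FPKM, where 1 WT sample was at the lowest value listed and the other at 0.0752 (2.18, limma adjusted p = 0.0629, or 0.0406 with a replicate block). In 8 of 9 such settings Nkx2-5 was not called in progenitors (limma adjusted p up to 0.234), and leaving out single samples gave a change of 1.79 to 2.58. In Sp3-/- ESC it was at 0.155 and 0.222 FPKM while both WT ESC samples were listed at 0. The all-sample adjusted p there was 0.187, with ESC fitted alone it was 0.0319, and without either Sp1ΔDBD/ΔDBD HE2 sample it was 0.0134 and 0.0131. Correcting for GC and gene length reversed the sign (-0.086, 0.972). Isl1 in Sp3-/- ESC was at 0.101 and 0.161 FPKM, against 0.0106 and 0.0167 in WT (1.01, limma adjusted p = 0.0659), and was called without either Sp3-/- HE1 sample (0.0427 and 0.0422), with no intensity trend (0.0367) or with the GC and length correction (0.0397).

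**Figure D4:**
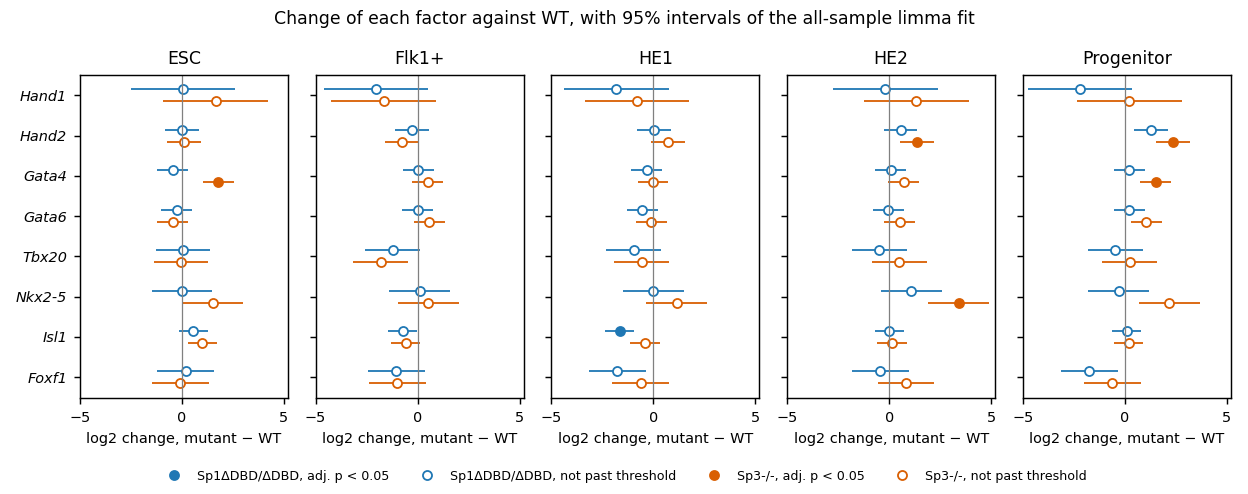
Difference of mean log2(FPKM + 0.1) between mutant and WT (x axis) for each factor (y axis) in the 5 populations, with 95% intervals from the limma fit over 30 samples; filled points had an adjusted p under 0.05. The 6 filled points are Isl1 in Sp1ΔDBD/ΔDBD HE1 and, in Sp3-/- cells, Gata4 in ESC and progenitors, Hand2 in HE2 and progenitors and Nkx2-5 in HE2; Hand1 has the widest intervals.

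Endothelial markers were measured beside these rises. In Sp3-/- HE2, 1 of 6 endothelial markers (Emcn) fell and 0 rose, and their sum was 390 to 399 FPKM, against 539 to 646 in WT. In Sp3-/- progenitors Tek rose and Emcn fell, with sums of 158 to 164 FPKM in Sp3-/- and 139 to 173 in WT, and these 3 marker calls were lost with populations fitted alone (0.118 to 0.216). The sum of 7 blood markers was 645 to 889 FPKM in Sp3-/- HE2, against 623 to 1046 in WT, and 1650 to 3406 in Sp3-/- progenitors, against 4341 to 13344 in WT, with 0 of the 7 called in either. Smooth muscle markers, of which 0 were called, summed to 115 to 138 FPKM in Sp3-/- HE2, between the WT samples, and to 59.7 to 71.4 in progenitors, below both. Pluripotency markers summed to at most 1.08 FPKM in these Sp3-/- samples. The part of the blood marker difference in the progenitor values was not tested.

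For each member an interaction term asked if the change against WT differed from one population to the next, 64 tests in all. By limma 0 passed the threshold and 6 had an unadjusted p under 0.05, as had 478 to 2716 of 14525 genes per term. Of all genes, 1.74%, 1.53%, 0.00688% and 0.0207% were called for Sp1ΔDBD/ΔDBD (Flk1+ against ESC, HE1 against Flk1+, HE2 against HE1, progenitor against HE2), and 1.48%, 4.02%, 0% and 0.0275% for Sp3-/-. The smallest adjusted p among members was that of Isl1 between ESC and Flk1+ cells in Sp3-/- (-1.59, limma adjusted p = 0.117). These terms join neighbouring populations only, so Flk1+ cells were not set against HE2 or progenitors. Whether the lower Flk1+ changes and the higher HE2 and progenitor changes of Sp3-/- cells differ was not tested. The Hand2 effect of Sp3-/- moved from -0.76 in Flk1+ cells to 0.71 in HE1, a difference of 1.46 (SE 0.561, limma adjusted p = 0.156).

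Compared directly, 5 of 40 tests between Sp3-/- and Sp1ΔDBD/ΔDBD cells passed the threshold, and Sp3-/- was the higher in the 5. They were Gata4 in ESC (2.24, limma adjusted p = 0.000710) and progenitors (1.29, 0.0264), Isl1 in HE1 (1.23, 0.0224), and Nkx2-5 in HE2 (2.31, 0.0320) and progenitors (2.50, 0.0280). The shares of all genes called, from ESC to progenitors along the same path, were 9.67%, 7.39%, 13.6%, 15.9% and 11.6%. In Flk1+ cells 0 members differed. The 95% interval of the difference was -2.19 to 2.93 for Hand1 and -1.94 to 0.75 for Tbx20, and these wide intervals do not show that the mutants act alike. With each population fitted alone, 4 of the 5 calls were lost, all but that of Nkx2-5 in progenitors (0.0550 to 0.311). Of 14525 genes these fits called 443 in ESC, 310 in HE1, 175 in HE2 and 145 in progenitors. For Nkx2-5 in progenitors both Sp1ΔDBD/ΔDBD samples were at the lowest value of their sample (0.00595 and 0.00816 FPKM), against 0.566 and 0.448 FPKM in Sp3-/- cells. Correcting for GC and gene length left 2 of the 5, without Nkx2-5 in HE2 (0.181) and progenitors (0.0743) and Gata4 in progenitors (0.0974), and a pseudocount of 1 lost Gata4 in ESC (0.0780) and Nkx2-5 in progenitors (0.171). Without Sp1ΔDBD/ΔDBD HE2 replicate 2, whose Nkx2-5 value was the lowest of the sample, the Nkx2-5 difference in HE2 was 0.44 (0.629). It was also not called without Sp3-/- HE2 replicate 1 (0.174) or 2 (0.0823). The Nkx2-5 call in progenitors was lost without any of the 4 samples compared (0.0786 to 0.137). The Isl1 call was lost without replicate 1 of Sp1ΔDBD/ΔDBD (0.155) or Sp3-/- HE1 (0.307). The Gata4 call in progenitors was lost without Sp1ΔDBD/ΔDBD progenitor replicate 1 (0.0854) or 2 (0.0816) or Sp3-/- progenitor replicate 2 (0.271).

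Other cardiac transcription factors, 14 of 18 listed being in the table, were the first list fixed around the members. Of the 14, 11 rose and 1, Hopx, fell from ESC to Flk1+ cells in WT. The most abundant were Mesp1, the early cardiac mesoderm factor, at 39.1 to 51.7 FPKM in WT Flk1+ cells, Tbx3 at 38.9 to 47.1 in the same cells, and Mef2a at 29.0 to 33.7 in WT HE1. In Sp1ΔDBD/ΔDBD cells 2 of 14 were called in Flk1+ (Zfpm2 up, Tbx2 down), 1 each in HE1 (Hey1), HE2 and progenitors (both Tbx2, all down) and 0 in ESC. In Sp3-/- cells 3 were called in Flk1+ (Mesp1 and Srf up, Tbx2 down), 3 in HE1 (Tbx2, Mef2a and Hey1 down), 3 in HE2 (Srf up, Mef2a and Tbx2 down), 2 in progenitors (Hey1 up, Tbx2 down) and 0 in ESC. Mesp1 was at 101 to 146 FPKM in Sp3-/- Flk1+ cells (1.44, limma adjusted p = 0.00678 over all samples), above WT, in the samples where Hand1 and Tbx20 were low.

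Tbx2, a T-box repressor of the atrioventricular canal, was the list's most frequent call. It was at 3.47 to 4.01 FPKM in Sp1ΔDBD/ΔDBD and at 3.46 to 4.04 in Sp3-/- Flk1+ cells, against 8.84 to 13.3 in WT, without overlap (-1.52 and -1.51, limma adjusted p = 0.0252 and 0.0154, and 0.0539 and 0.0359 with Flk1+ samples alone). Tbx2 lies, like Hand1, on chromosome 11, as do Tbx4 and Meis1 of the next list. Over the 5 populations the median change of that chromosome was -0.12 to -0.34 in Sp1ΔDBD/ΔDBD and -0.12 to -0.27 in Sp3-/- cells. With each chromosome centred on its own median, Tbx2 was still called in Flk1+ cells (0.0480 and 0.0258), but not in Sp1ΔDBD/ΔDBD HE2 and progenitors (0.136 and 0.147) or Sp3-/- HE1 and HE2 (0.0852 and 0.138).

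Other lateral plate and mesenchymal genes, 15 of 19 in the table, also rose into mesoderm, 11 up and 1 (Wt1) down in WT Flk1+ cells against ESC. The most abundant were the signal Bmp4, at 79.1 to 94.8 FPKM in WT Flk1+ cells, and the homeobox genes Msx2 and Msx1, at 59.1 to 66.1 and 28.0 to 28.4 FPKM. In Sp1ΔDBD/ΔDBD cells 1 of 15 was called in each of Flk1+, HE1, HE2 and progenitor cells, all lower, being Tbx4 in the first 2 populations and Meis1 in the last 2. In Sp3-/- cells Foxc2, a forkhead factor of mesoderm, rose in Flk1+ cells (2.52, limma adjusted p = 0.00337, and 0.0659 with Flk1+ samples alone), and 1 gene fell in HE1 (Tbx4), HE2 (Meis1) and progenitors (Meis1). Meis1, a homeobox factor of heart and blood progenitors, was at 7.58 to 9.23 FPKM in Sp3-/- progenitors, against 22.5 to 44.5 in WT (-1.91, limma adjusted p = 0.000818, 0.00346 after chromosome centring and 0.0921 with progenitors fitted alone). Its fall in Sp1ΔDBD/ΔDBD HE2 and progenitors was not called after centring (0.206 and 0.196).

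Contractile and secreted cardiac genes were the third list, with 16 of 17 in the table. From ESC to WT Flk1+ cells 3 rose and 3 fell, with a median change of -0.05, against 7.18 for the 8 members. The most abundant were Ankrd1, at 27.1 to 132 FPKM in WT HE1, the slow troponin Tnni1, at 11.6 to 11.8 in WT progenitors, and the atrial light chain Myl7, at 8.14 to 11.5 in WT Flk1+ cells. In Sp1ΔDBD/ΔDBD cells 2 of 16 were called in ESC (Myl3 up and Myh6 down) and 0 elsewhere. In Sp3-/- cells 1 was called in ESC (Myh7 up), 1 in Flk1+ (Ryr2 down), 1 in HE1 (Nppb down) and 0 in HE2 and progenitors. Among the 3 hematopoietic GATA factors, 0 were called in Sp1ΔDBD/ΔDBD cells, and in Sp3-/- cells Gata2 rose in ESC, HE2 and progenitors (0.69 to 0.93) and Gata1 fell in Flk1+ cells (-2.71, limma adjusted p = 0.0381). In Sp3-/- progenitors Gata2 was at 12.7 to 16.2 FPKM, against 7.35 to 7.65 in WT (0.93, limma adjusted p = 0.0117, and 0.124 with progenitors alone).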

How the data were processed

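RNA of 30 samples (5 populations, 3 genotypes, 2 replicates) was sequenced from stranded total RNA libraries. The authors aligned the reads to mm10 with HISAT2 2.1.0, calculated FPKM with StringTie 1.3.3, kept genes above 1 FPKM in a sample and quantile normalised the values. The deposited FPKM table holds no counts, so depth is unknown and the spread between replicates is the error used.

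Samples were grouped by their labels. Genes above 1 FPKM in at least 1 sample (14525 of 14685) entered limma 3.58.1, run in R 4.3.3 as a model of log2(FPKM + 0.1) with 15 group means over 30 samples, an intensity trend, and 15 residual and 3.92 prior degrees of freedom. P-values are two-sided and Benjamini-Hochberg adjusted per comparison, with a threshold of 0.05. The comparisons were each mutant with WT, WT steps, differences of effect, and the mutants with each other. Across genes, the deviations of same-numbered WT and Sp1ΔDBD/ΔDBD samples correlated in each of the 5 populations (r = 0.222 to 0.455). For samples sorted from the blast culture r was 0.352 to 0.427 in WT, 0.408 to 0.612 in Sp1ΔDBD/ΔDBD and 0.0349 to 0.154 in Sp3-/- cells. Numbers were taken as pairs from the data between WT and Sp1ΔDBD/ΔDBD samples and between WT blast culture samples. Those of Sp3-/- and WT (0.00473 to 0.193) were not, and no cut-off was set. The main fit did not use any pairs. It treated the 30 samples as independent, so its p-values are unpaired, also where numbers were taken as pairs. Replicate numbers entered the alternatives with the replicate block and the shared blast culture. GENCODE M21 (GRCm38) gave gene positions, lengths and GC content, with 14370 symbols matched directly, 189 by an older symbol and 126 not. Python 3.11.15 and matplotlib 3.10.9 were used.

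The members and gene lists were chosen with earlier results of these data known. Named are the members, per list the 3 genes with the highest group mean and the called genes with the smallest adjusted p, and for each member the 3 nearest patterns; further genes that a count of 5 or fewer covers were named after their values were seen. Alternatives were a pseudocount of 1, other filters, the replicate block, shared cultures, single-population fits, no trend, chromosome centring, a GC and length correction, a fold change above 2, and leaving out each sample. The full count of lateral plate genes called in Sp3-/- Flk1+ cells is not reported here.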

Additional observations from a re-analysis of the deposited data

How the results depend on the processing

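Of the tests against WT in Sp1ΔDBD/ΔDBD cells, 1 was called, and 3 with a pseudocount of 1, 2 with genes above a group mean of 3 FPKM, 2 with the shared blast culture, 2 with the GC content and gene length correction and 10 by the fold change rule. In Sp3-/- cells 5 were called, and 8 with a pseudocount of 1, 3 in the fits restricted to the populations compared and 14 by the fold change rule. Between the mutants 5 were called, and 2 in the restricted fits, 2 with the GC content and gene length correction and 12 by the fold change rule. For the differences of effect 0 were called, and 2 with a pseudocount of 1 (both Isl1, Flk1+ against ESC) and 1 in the restricted fits (Hand1). The causes were not tested. Over all genes the main fit called 804 to 1458 per population in Sp1ΔDBD/ΔDBD and 1257 to 2006 in Sp3-/- cells. A pseudocount of 1 called 993 to 1585 and 1380 to 2144, and the restricted fits 2 to 604 and 1 to 2089. Between the mutants the restricted fits called 145 to 925 genes, and the GC and length correction 847 to 1792. A fold change above 2 was the study's own rule, and its share over all genes was not computed here. WT steps gave 23 calls, and 22 to 25 in the other settings. Leaving out each sample gave 0 to 4 calls in Sp1ΔDBD/ΔDBD, 4 to 7 in Sp3-/-, 3 to 8 between the mutants, 21 to 25 for WT steps and 0 to 1 for the differences of effect.

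With the replicate block the counts were 1 in Sp1ΔDBD/ΔDBD, 7 in Sp3-/-, 23 for WT steps, 5 between the mutants and 0 for the differences of effect. Tbx20 in Flk1+ (0.0220) and Nkx2-5 in progenitors (0.0406) of Sp3-/- cells were gained. Calls over all 14525 genes rose as well, to 953 to 1708 per population in Sp1ΔDBD/ΔDBD and 1601 to 2424 in Sp3-/- cells. The main fit called 804 to 1458 and 1257 to 2006. Between WT and Sp1ΔDBD/ΔDBD, where the numbers were taken as pairs, the block changed no call. Between Sp3-/- and Sp1ΔDBD/ΔDBD samples of the same number r was -0.039 to 0.199, the upper end near the 0.222 of WT and Sp1ΔDBD/ΔDBD Flk1+ cells. Whether the numbers pair Sp3-/- samples with those of the other genotypes is not settled by these values.

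Among values that were not called, the GC content and gene length correction reversed the Nkx2-5 change in Sp3-/- ESC (-0.086) and Flk1+ cells (-0.45). Leaving out a sample reversed 4 more, which then ranged from -0.78 to 2.96 for Nkx2-5 in Sp1ΔDBD/ΔDBD HE2, from -4.42 to 0.032 for Hand1 in Sp1ΔDBD/ΔDBD progenitors, and for Hand1 in Sp3-/- cells from -1.70 to 0.076 in HE1 and from -0.40 to 3.07 in HE2. With FPKM values alone, the counting precision of members under 1 FPKM cannot be stated.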
